A study of Drosophila melanogaster with 31 samples.

Results

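The proteasome genes of Drosophila melanogaster were followed through 31 RNA-seq libraries of antennae and brains. Members were all genes whose symbol begins with Prosalpha, Prosbeta, Rpn or Rpt and a number, which gave 48 of the 13821 genes with a transcript in the deposited files. Of these, 32 encode the standard subunits, with 14 in the core particle and 18 in the regulatory particle. The other 16 carry the symbol of a standard subunit followed by R or T and are called testis-type copies here. The name follows the symbol and not the levels: Prosalpha1R, counted among them, was abundant in antennae and brains. All flies were male. Antennal libraries (the second and the third segment, flies 4 to 5 days old) came from the wild-type strain OreR and from Orco2 (w*; TI{TI}Orco2), a mutant of the odorant co-receptor gene Orco, so the mutation comes with another strain background. Each strain had 2 libraries from sensory-deprived flies (0 min) and 2 from flies given odor and light, labelled with the times 10, 20 and 30 min. Brain libraries came from OreR. At 4 to 5 days, called 5 days below, there were 3 libraries each at 0, 10, 20, 30 and 45 min of odor and light, and at 10 and at 25 days there were 2 at 0 min and 2 at 30 min. The series calls its replicates biological, and the number of flies pooled in each is not given in the sources used here.

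The proteasome degrades proteins that have been tagged with ubiquitin. Its core particle is a barrel of stacked rings: alpha subunits form the outer rings, which gate the entry, and beta subunits form the inner rings, where Prosbeta1, Prosbeta2 and Prosbeta5 carry the proteolytic sites. The regulatory particle caps the barrel. Its base holds a ring of ATPases (the Rpt proteins) that unfold substrates, with the scaffold proteins Rpn1 and Rpn2 and the ubiquitin receptors Rpn10 and Rpn13, and its lid holds Rpn11, which removes the ubiquitin chain, its partner Rpn8, and further scaffold proteins. In Drosophila, several subunits have a second gene that is used in the male germ line, and the standard genes can be switched on together by the transcription factor Cnc.

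Library totals ran from 18.5 to 76.7 M estimated counts (M, 1000000). The antennal markers, which include odorant-binding protein genes, summed to 23425 to 27860 TPM (transcripts per 1000000, a level per transcript length) in the 8 antennae and to 9.48 to 30.6 TPM in the 23 brains, and 6 neuronal markers summed to 514 to 842 and 3181 to 6086 TPM. Orco itself stood at 1401, 1403, 1412 and 1360 TPM in OreR antennae and at 6.02, 5.86, 5.77 and 6.52 TPM in Orco2 antennae. In 4 brain libraries, ribosomal protein genes averaged more than 1 log2 unit under the brain median: replicate C of 5-day brains at 0 min (-1.67) and at 20 min (-1.08), and replicate B of 25-day brains at 0 min (-2.58) and at 30 min (-2.46). These are called the 4 low libraries, and results that use them are also given without them. Antennal and brain libraries were never paired in the labels, so tissue cannot be told apart from whatever else differed between those libraries. In bulk tissue, fewer cells of a type and less RNA per cell cannot be told apart either, and p-values measure the spread between these libraries.

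After TMM scaling, unstimulated antennae of OreR held more RNA of every standard proteasome subunit than unstimulated 5-day brains, and the core particle differed by more than the regulatory particle. By the quasi-likelihood F-test of edgeR with adjustment over all 11772 genes tested, 14 of 14 core and 18 of 18 regulatory genes were higher in antennae (adjusted p under 0.05) and none was lower, while 30.1 percent of all genes tested were called higher. The median log2 difference was 2.24 over the core genes, 1.29 over the regulatory genes and 0.17 over all genes tested. Between stimulated OreR antennae and 5-day brains at 10, 20 and 30 min, 13 core and 17 regulatory genes were higher, against 36.7 percent of all genes, with medians of 1.89 and 1.19 beside 0.15 over all genes.

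Among the alpha subunits, Prosalpha5 (chromosome arm 2R, 17412767 to 17413769, coordinates of BDGP6.54 here and below) had the highest mean level in unstimulated OreR antennae, with 205 and 206 TPM, against 74.7, 49.9 and 44.5 TPM in 5-day brains A, B and C. Its log2 difference was 2.64 ± 0.26 (SE), with an edgeR adjusted p of 2.64e-08. Prosalpha3 (2R, 20994900 to 20996118) stood at 202 and 178 TPM in antennae and at 70.1, 54.7 and 26.1 TPM in brains, a log2 difference of 2.69 ± 0.65 (edgeR adjusted p 0.00131). Both antennal values of each gene lay above all 3 brain values, and brain C, one of the 4 low libraries, was the lowest of the brains for both. The other 5 alpha genes, among them Prosalpha4 (2.23 ± 0.25, edgeR adjusted p 1.48e-07), differed by 1.78 (Prosalpha2) to 2.26 (Prosalpha1, whose split from its copy is uncertain, as described further on). The call of Prosalpha1 was lost without OreR antenna A (1.19, edgeR adjusted p 0.264), without brain C (1.95, edgeR adjusted p 0.05) and on the deposited TPM (1.34, limma adjusted p 0.12).

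Of the beta subunits, the caspase-like site subunit gene Prosbeta1 (2R, 16013805 to 16014787) differed most. It was at 166 and 149 TPM in antennae and at 53.1, 27.9 and 19.9 TPM in brains, and was higher by 3.01 ± 0.46 on the log2 scale (edgeR adjusted p 8.25e-06). The chymotrypsin-like site subunit gene Prosbeta5 (2R, 10819978 to 10821178) differed least, with 152 and 122 TPM in antennae and 99.9, 110 and 80.4 TPM in brains (1.24 ± 0.32, edgeR adjusted p 0.00249). The antennal and brain values did not overlap for either gene. Prosbeta2, which carries the trypsin-like site, lay nearer to Prosbeta5 (1.55), while the structural subunits Prosbeta3, Prosbeta4, Prosbeta6 and Prosbeta7 differed by 2.03 to 2.55.

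In the regulatory particle the 6 ATPase genes were higher by 1.13 (Rpt5 and Rpt6) to 1.86 (Rpt3), and the lid genes by 0.68 (Rpn5) to 1.87 (Rpn7). Rpt3 (X, 11125101 to 11126785) had 142 and 140 TPM in antennae and 92.5, 53.6 and 44.8 TPM in brains. For the lid scaffold gene Rpn5 (3R, 5789493 to 5791569) the TPM values overlapped, with 96.2 and 88.4 in antennae and 88.7, 103 and 92.8 in brains, although the edgeR difference of 0.68 ± 0.10 had an adjusted p of 7.85e-06. The TPM values of Rpn1, Rpn2 and Rpn10 also overlapped between the tissues. The gap between these readings comes with the scale: edgeR with TMM normalization put the median of all genes at 0.17, library totals alone put it at 0.52, and the deposited TPM put it at -0.36. Among the 4 base genes that encode no ATPase, the ubiquitin receptor gene Rpn13 differed most (1.93), followed by Rpn10 (1.02), and the scaffold genes Rpn1 (0.94) and Rpn2 (0.81) were among the smallest differences.

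The spans of some of these genes, from gene start to gene end with introns included, overlap the span of a neighbour. Rpt1 lies wholly within CG17985 on the same strand (1515 bases). Rpt6 and Rpn8 share 1471 and 2653 bases with CG1801 and Slik on the opposite strand. Whether exons overlap was not examined, here or for the overlaps named below, so whether reads were shared is not known.

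**Figure D1:**
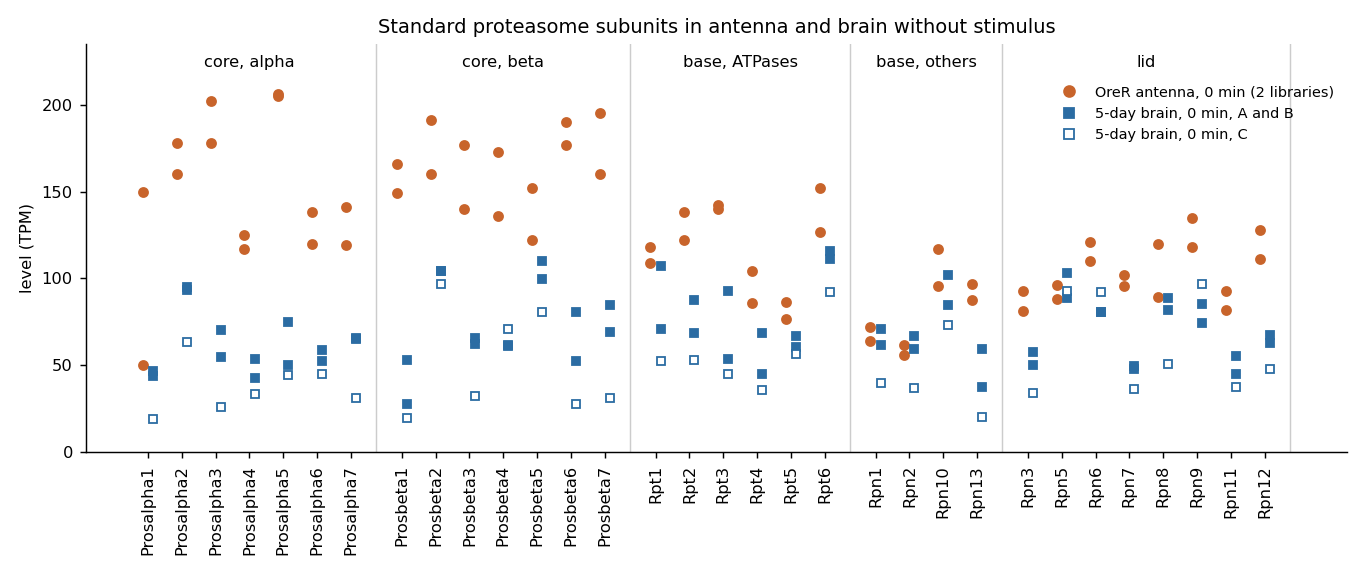
Level in TPM (vertical axis, linear) of each standard subunit gene in the 2 unstimulated OreR antennal libraries (circles) and the 3 unstimulated 5-day brain libraries (squares, open for replicate C), ordered by position in the particle. Antennal values of core genes mostly lie between 117 and 206 TPM, apart from Prosalpha1 at 50.3 TPM in replicate B, and brain values lie between 18.9 and 116 TPM. Rpn5 is the lid gene whose antennal and brain values are closest.

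Measured against the median of all genes on each scale, the core median was 2.07 with TMM, 2.10 with library totals and 1.78 with the deposited TPM, and the regulatory median was 1.12, 1.12 and 0.95. Of all genes tested, 30.1 percent were called higher and 28 percent lower with TMM, 36.1 and 20.6 percent with library totals, and 19.6 and 43.1 percent with the TPM. The number called moved more: on log2 of the deposited TPM plus 1, limma called 12 core and 9 regulatory genes higher and no standard subunit lower; the 3 members it called lower were the copies Rpt3R, Prosalpha3T and Prosalpha4T1. Without the 4 low libraries the core and regulatory medians were 2.03 and 1.30, and 32 of 32 standard genes were again called higher, against 32 percent of all genes. In the stimulated comparison, Prosalpha1 (1.02 ± 0.58, edgeR adjusted p 0.128) and Rpn1 (0.59 ± 0.29, edgeR adjusted p 0.0733) were the standard genes that did not pass.

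The same contrast between the particles was visible in the levels within each library, which are set against each other here per transcript length. In the 8 antennal libraries the median core gene stood at 145 to 175 TPM and the median regulatory gene at 92.2 to 111 TPM, a ratio of 1.46 to 1.71. In the 23 brain libraries the medians were 27.7 to 90.5 TPM and 32.0 to 84.0 TPM, a ratio of 0.66 to 1.08. No brain library reached the lowest antennal ratio. The order of genes differed too: in unstimulated OreR antennae the 9 highest mean levels all belonged to core genes, led by Prosalpha5 (206 ± 0.767 TPM, SD, n = 2), Prosalpha3 (190 ± 17.5) and Prosbeta6 (184 ± 9.16). Prosalpha3 overlapped with both of the others within these SDs. The lowest were the scaffold genes Rpn1 (67.9 ± 5.61) and Rpn2 (58.8 ± 4.18). In unstimulated 5-day brains the first was the ATPase gene Rpt6 (106 ± 12.7 TPM, n = 3), next Prosbeta2 (101 ± 4.01) and Prosbeta5 (96.9 ± 15.2), whose SDs overlap, and the last was Prosbeta1 (33.7 ± 17.3), which overlapped with Prosalpha1 (36.4 ± 15.2) and Rpn13 (39.0 ± 19.6) just above it.

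**Figure D2:**
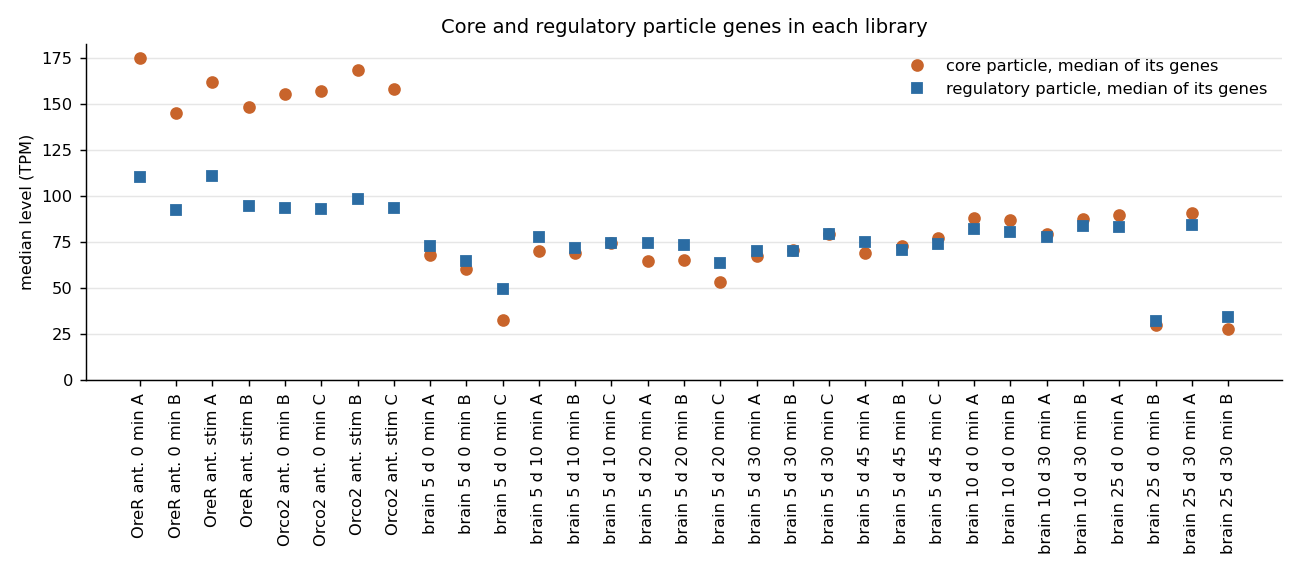
Median level in TPM (vertical axis, linear, from 0) of the 14 core genes (circles) and the 18 regulatory genes (squares) in each of the 31 libraries. In antennae the core median lies at 145 to 175 TPM, well above the regulatory median, and in brains the medians lie close together, with low values for replicate C of 5-day brains at 0 min and replicate B of 25-day brains.

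Genes that work beside the proteasome differed less uniformly between the tissues. Of 25 such genes, 13 were higher and 3 lower in unstimulated OreR antennae, against 30.1 and 28 percent of all genes. In stimulated ones 16 were higher and 3 lower, against 36.7 and 29.8 percent. The medians were 0.48 and 0.53, beside 0.17 and 0.15 over all genes. The 5 with the smallest adjusted p in both comparisons were rngo (a ubiquitin-binding shuttle protein, 1.70 ± 0.12), Cul1 (a ubiquitin ligase scaffold, -1.23 ± 0.12), Keap1 (a repressor of Cnc, 1.26 ± 0.15), Pomp (a chaperone of core assembly, 1.80 ± 0.24) and cnc itself (1.29 ± 0.20), all log2 differences at 0 min. Sem1, a small lid subunit whose symbol falls outside the rule, was higher by 1.91 ± 0.53 (edgeR adjusted p 0.00425). Under the deposited TPM with limma, 6 of these 25 were higher and 9 lower at 0 min, against 19.6 and 43.1 percent of all genes. Directions thus depend on the scale, over all genes and not only over this list.

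Of the testis-type copies, only Prosalpha1R was an abundant RNA, at 2.36 to 203 TPM over the 31 libraries. The other 15 copies together summed to 3.25 to 22.4 TPM in a library. In 5-day brains at 0 min the highest of them were Prosalpha4T1 (4.69, 8.95 and 4.18 TPM), Rpt3R (1.86, 2.50 and 2.05 TPM), Rpt6R (1.10, 1.18 and 1.58 TPM) and Prosalpha3T (1.06, 0.817 and 1.55 TPM). Prosalpha4T1 (3R, 20748184 to 20749074) lies along its whole length of 891 bases opposite to CG42322, which stood at 316, 288 and 285 TPM in the same brains. Whether counting used strand is not given in the sources used here, and overlap of exons was not examined. The part of CG42322 reads in the values of Prosalpha4T1 was therefore not tested. By their spans, Rpn12R lies wholly within Sytbeta and Rpn13R within rg and CG15465, all on the same strand. Shared reads were not tested there either. In 5-day brains A, B and C at 0 min, Rpn12R was at 0.277, 0 and 0.354 TPM and Sytbeta at 79, 87.5 and 98.5 TPM. Prosbeta4R2 shares 69 bases on the same strand with Or23a, an odorant receptor gene.

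The remaining copies were near 0 in brains and uneven among antennae. Prosbeta4R2 was at 0, 2.00, 0 and 3.09 TPM in the OreR antennal libraries 0 min A, 0 min B, stimulated A and stimulated B, and at 0.698, 0.370, 0 and 0.428 TPM in the Orco2 libraries 0 min B, 0 min C, stimulated B and stimulated C. Prosalpha6T, in the same order, was at 0, 1.64, 0.364 and 1.58 TPM and at 1.38, 0.392, 0.113 and 0.388 TPM. Prosbeta5R1 followed at 0, 0.694, 0 and 1.91 TPM and at 1.42, 0.495, 0 and 0.382 TPM. Replicate B of the OreR antennae was the higher of each pair for these 3 copies, both with and without stimulus. Other copies were higher in replicate A at 0 min: Prosbeta2R2 (0.285 and 0.197 TPM in A and B), Rpt4R (0.478 and 0.275 TPM), Rpt6R (0.912 and 0.871 TPM) and Prosalpha3T (0.0986 and 0 TPM). In stimulated Orco2 antennae, Prosbeta2R2 was at 0.996 TPM in B and 0.357 TPM in C.

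Summed markers of testis ranked the OreR replicates as Prosbeta4R2, Prosalpha6T and Prosbeta5R1 did. Prosbeta2R2 did not follow them in unstimulated OreR or in stimulated Orco2 antennae. The sum of 20 testis marker genes was 8.17, 121, 7.09 and 209 TPM in the OreR libraries and 102, 69.5, 11.0 and 44.9 TPM in the Orco2 libraries, in the same order, and 10.0 to 27.0 TPM in the 23 brains. The sperm genes ocn and dj, 0 or near it in OreR stimulated A (0.165 and 0 TPM), were at 23.4 and 14.0 TPM in OreR stimulated B. At 0 in a library were 0 to 14 of the 20 markers in antennae and 3 to 13 in brains. The part of testis RNA in the copies' levels was not tested.

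In the comparison of tissues, 3 of 16 copies were called higher in unstimulated OreR antennae (Prosalpha1R, Rpt4R and Prosalpha4T2), against 30.1 percent of all genes. In stimulated antennae 10 were called higher, against 36.7 percent: Prosalpha1R, Prosalpha4T2, Prosalpha6T, Prosbeta2R1, Prosbeta2R2, Prosbeta4R1, Prosbeta4R2, Prosbeta5R1, Prosbeta5R2 and Rpt4R. Apart from Prosalpha1R, these copies had 0 to 5 counts in each of the 12 brain libraries compared, so they could enter the test only through libraries where they were higher, and their calls are not read as support for a difference. Prosalpha4T2 (2R, 24500780 to 24502277) had 13 and 22 counts in unstimulated OreR antennae, 2 and 46 in stimulated ones, and 0, 0 and 0 in unstimulated brains. Rpt4R had 9 and 6 counts in unstimulated antennae, 0 and 12 in stimulated ones, and 0, 0 and 1 in unstimulated brains. Its call at 0 min was lost under 7 of the settings tried, with adjusted p from 0.0606 to 0.105.

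Single libraries carried most of the calls in stimulated antennae. Replicate B was the library with the highest testis marker sum. Without it, Prosbeta2R1, Prosbeta4R2 and Rpt4R lost the call, and so did Prosbeta2R2, Prosbeta4R1, Prosbeta5R1 and Prosbeta5R2. The remaining replicate A held 0 counts of all of these except Prosbeta2R1. The signs of Prosbeta2R2, Prosbeta4R1, Prosbeta5R1 and Prosbeta5R2 turned negative there, but with SEs of 2.43 to 3095.81 they give no direction. Prosalpha6T, at 5 and 33 counts, lost it under DESeq2 (adjusted p 0.176). Prosalpha1R, the one copy that was abundant in brains too, lost it with the fragment-length class as a covariate (2.65, edgeR adjusted p 0.0798). Rpt3R was called lower (-1.14 ± 0.41, edgeR adjusted p 0.0176), as were 29.8 percent of all genes, with 0.282 and 0.684 TPM in antennae. This call was lost without stimulated replicate A (-0.67, edgeR adjusted p 0.259) and with library totals (-0.81, edgeR adjusted p 0.0848). It was also lost with the fragment-length class (-0.28, edgeR adjusted p 0.835), under the limit just given. Rpn12R, Rpn13R, Rpt6R, Prosalpha3T and Prosalpha4T1 passed in neither comparison.

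**Figure D3:**
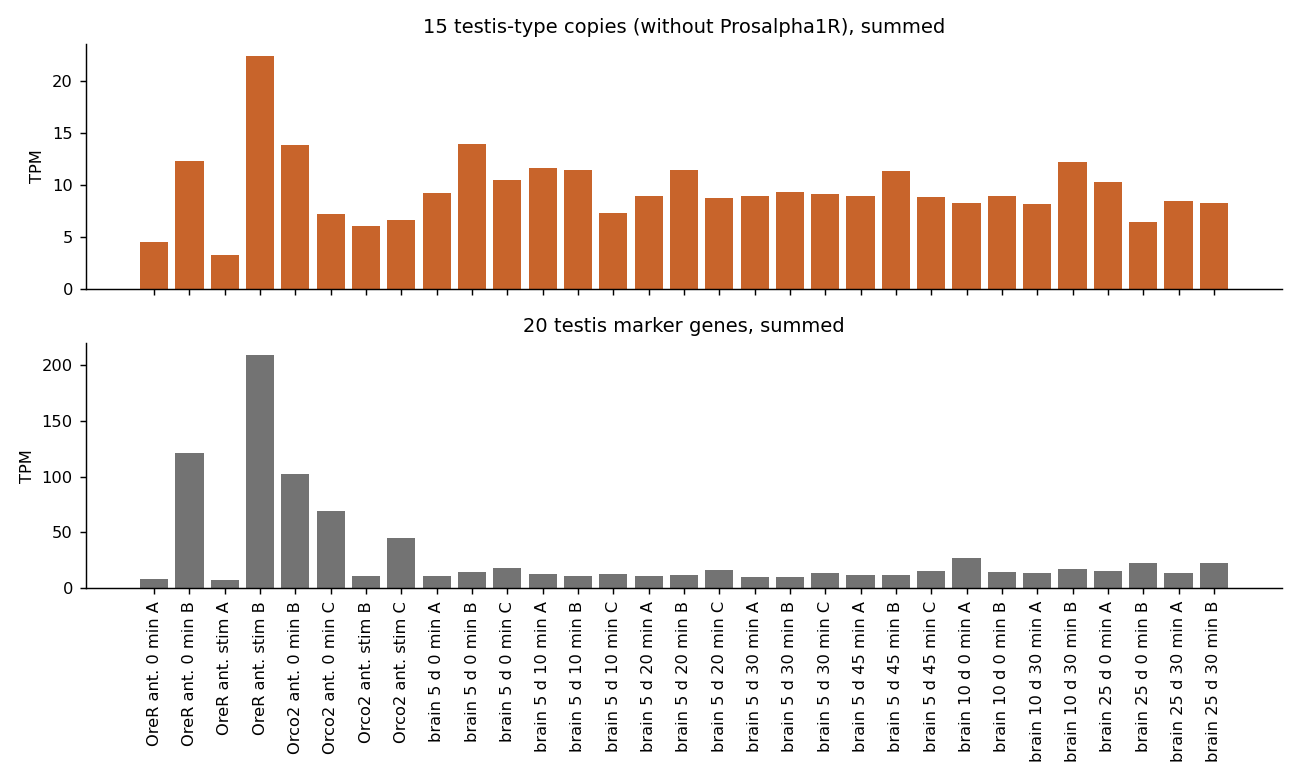
Summed level in TPM (vertical axes, linear, from 0) of the 15 testis-type copies other than Prosalpha1R (upper panel) and of 20 testis marker genes (lower panel) in each of the 31 libraries. OreR stimulated B is the highest library in both panels, with 22.4 and 209 TPM, while brains hold 6.39 to 13.9 TPM of the copies with 10.0 to 27.0 TPM of the markers.

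Prosalpha1 and Prosalpha1R need to be read together. They lie on the same strand of arm 2R, at 7827303 to 7828678 and 7830413 to 7831771, and the share of their summed TPM that was assigned to Prosalpha1 ran from 6.9 to 96.6 percent over the 31 libraries. In OreR antennae Prosalpha1 was at 150, 50.3, 70.9 and 63.9 TPM (0 min A and B, stimulated A and B) while Prosalpha1R was at 55.6, 116, 129 and 111 TPM. In Orco2 antennae Prosalpha1 was at 264, 134, 170 and 120 TPM (0 min B and C, stimulated B and C) and Prosalpha1R at 41.0, 180, 179 and 203 TPM. In unstimulated antennae of both strains and in stimulated Orco2 antennae, the replicate with more Prosalpha1 had less Prosalpha1R, while in stimulated OreR antennae both genes were higher in replicate A. The sums were at 206, 167, 199 and 175 TPM in OreR and 305, 314, 348 and 323 TPM in Orco2. Each gene alone is therefore reported as uncertain.

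**Figure D4:**
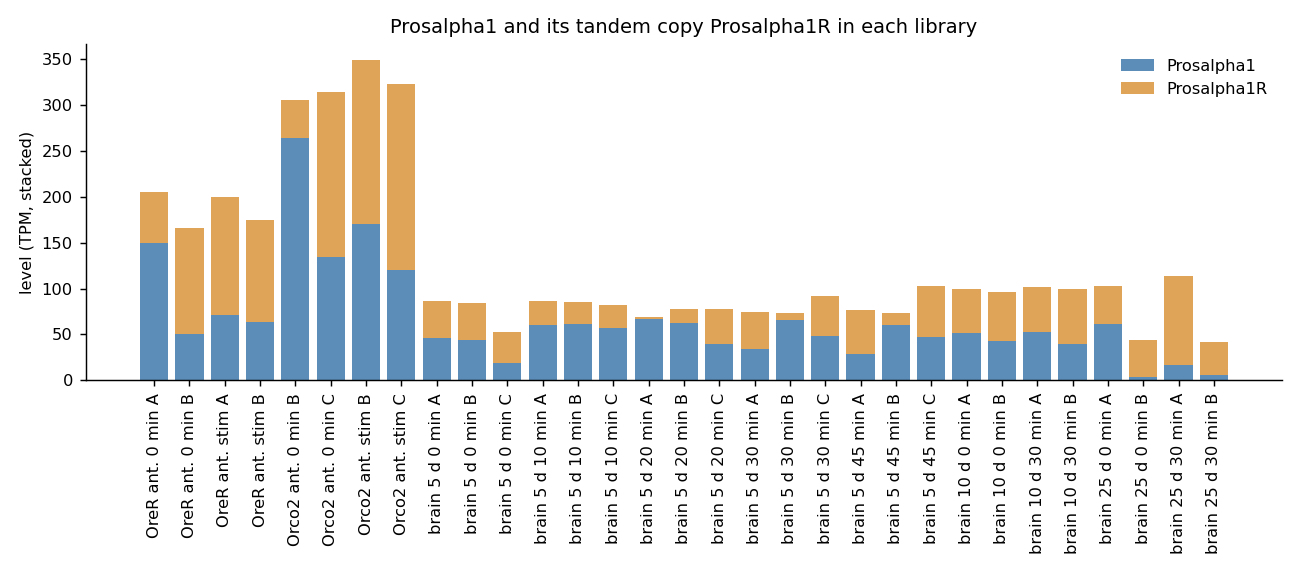
Level in TPM (vertical axis, linear, from 0) of Prosalpha1 (lower part of each bar) and Prosalpha1R (upper part) in each of the 31 libraries. The division between the parts varies among replicates, and the whole bars are highest in the 4 Orco2 antennal libraries, at 305 to 348 TPM, against 167 to 206 TPM in OreR antennae.

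Between the genotypes, no proteasome gene passed the test on its own. At 0 min, 0 of 47 members tested were called, against 5.36 percent of all 11298 genes, and in stimulated antennae 0 of 47 against 7.15 percent, with 0 and 1 members at an unadjusted p under 0.05 and 0 and 1 called by DESeq2, against 9.79 and 13.7 percent of all genes. Core and regulatory medians were -0.06 and -0.11 at 0 min, and -0.08 and -0.08 with stimulus, as log2 differences of Orco2 from OreR, and stayed below 0 with library totals and with the deposited TPM. The sum of Prosalpha1 and Prosalpha1R, formed after the values were seen, was higher in Orco2 by 0.81 ± 0.17 at 0 min (edgeR adjusted p 0.0467) and by 0.86 ± 0.17 with stimulus (edgeR adjusted p 0.0324), where 5.39 and 7.16 percent of all genes were called. All 4 Orco2 values lay above all 4 OreR values. When 1 compared library was left out, the difference stayed between 0.60 and 1.03 at 0 min and between 0.75 and 0.99 with stimulus, but the adjusted p ran from 0.0478 to 0.224 and from 0.0872 to 0.189, so that the call was kept only without OreR 0 min A. With the replicate letter as a block the differences were 1.08 (edgeR adjusted p 0.000722) and 1.13 (edgeR adjusted p 0.000656). The genotypes share only letter B, whose libraries did not deviate together (correlations -0.00 at 0 min and -0.62 with stimulus). The blocked values are therefore not read as firmer than those without a block.

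The gene next to Prosalpha1, phr (a DNA photolyase), overlaps it by 17 bases on the opposite strand and differed strongly between the strains. It stood at 3.88, 4.85, 3.50 and 4.39 TPM in OreR and at 44.5, 52.9, 54.7 and 52.7 TPM in Orco2 antennae, a log2 difference of 3.53 ± 0.14 at 0 min (edgeR adjusted p 0.000166). Its part in the counts of Prosalpha1 was not tested, and strain background cannot be told apart from the Orco mutation.

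The members with the smallest unadjusted p between genotypes were Prosbeta5, Prosalpha6 and Rpt3 at 0 min and Rpn5, Prosalpha6 and Rpn13R with stimulus. Prosbeta5 was at 178, 161, 174 and 163 TPM in Orco2 and at 152, 122, 150 and 128 TPM in OreR antennae, without overlap, and its log2 difference at 0 min was 0.43 ± 0.18 (edgeR adjusted p 0.316). With the replicate letter as a block it was 0.72 ± 0.10 (edgeR adjusted p 0.00424), with the same limit that the genotypes share only letter B. With the fragment-length class of the library as a covariate it was 0.48 ± 0.10 (edgeR adjusted p 0.0297). Rpn5 was at 72.4, 77.5, 70.2 and 77.2 TPM in Orco2 and at 96.2, 88.4, 109 and 86.4 TPM in OreR, again without overlap, with -0.39 ± 0.13 in stimulated antennae (edgeR adjusted p 0.138, DESeq2 adjusted p 0.0297). Prosalpha6 was at 95.5, 106, 95.0 and 111 TPM against 138, 120, 134 and 120 TPM (-0.31 ± 0.14 at 0 min, edgeR adjusted p 0.339). Among the 25 neighbouring pathway genes, 0 were called at 0 min and 1 in stimulated antennae, the polyubiquitin gene Ubi-p5E (-0.48 ± 0.10, edgeR adjusted p 0.0370).

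No proteasome gene passed the test for a response to odor and light in either tissue. In OreR and in Orco2 antennae, 0 of 47 members and 0 percent of all genes were called by edgeR, and 0 members had an unadjusted p under 0.05. DESeq2 called 0 members in both, against 0.0797 and 0.266 percent of all genes. Core and regulatory medians were 0.03 and 0.06 in OreR and 0.01 and 0.04 in Orco2, as log2 differences of stimulated from 0 min; the core median of OreR turned to -0.01 with the deposited TPM, and those of Orco2 to -0.04 and -0.02 with library totals. Prosalpha5, for example, was at 205 and 206 TPM before and 211 and 199 TPM after the stimulus in OreR antennae. The smallest unadjusted p belonged to Prosbeta5R2 in OreR (0.151) and Rpn13R in Orco2 (0.0932), copies at under 2 TPM in these libraries, followed by Rpn13 and Prosalpha2 in OreR (0.14 ± 0.11 and 0.17 ± 0.13) and by Rpt4R and Prosalpha1R in Orco2.

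In 5-day brains the 4 stimulated times were each compared with the same 3 libraries at 0 min, so these comparisons share their controls. No member and 0 percent of all genes were called by edgeR at any time, with 0, 1, 1 and 0 members at an unadjusted p under 0.05 at 10, 20, 30 and 45 min. DESeq2 called 0 members at each time, against 0.0967, 0.135, 0.126 and 0.126 percent of all genes. Core medians were 0.38, 0.19, 0.52 and 0.45 and regulatory medians 0.28, 0.19, 0.33 and 0.29, beside medians of all genes between -0.01 and 0.00. Prosalpha5 had the smallest p at 10, 30 and 45 min. It was at 74.7, 49.9 and 44.5 TPM at 0 min and at 73.5, 76.1 and 79.4 TPM at 30 min, a log2 difference of 0.55 ± 0.25 (edgeR adjusted p 0.879). Only replicate A at 0 min reached the stimulated level. Prosbeta1, next at 30 and 45 min, was at 52.5, 53.0 and 51.5 TPM at 30 min against 53.1, 27.9 and 19.9 TPM at 0 min (0.76 ± 0.44, edgeR adjusted p 0.879). Also among the smallest p were Prosalpha4 (10 min), Rpt3 (30 min), Rpt2 and Prosalpha1R (20 min) and Rpn13R (20 and 45 min). Ribosomal protein genes shifted in the same direction, with medians of 0.57, 0.33, 0.68 and 0.64. Without the 4 low libraries the core medians were 0.19, 0.05, 0.25 and 0.24 and the regulatory medians 0.13, 0.11, 0.14 and 0.16, so each core median moved by more than 1.5 times.

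In older brains the stimulus gave 0 called members and 0 percent of all genes by edgeR at both ages, with 0 members at an unadjusted p under 0.05. DESeq2 also called 0 members, against 0.976 percent of all genes at 10 days and 0.00967 percent at 25 days. Neither test paired libraries by letter, although same-lettered 25-day libraries deviated together from their group means (correlation 0.88 over genes). Core and regulatory medians were -0.04 and 0.01 at 10 days and 0.01 and 0.08 at 25 days; the regulatory median of 10-day brains turned to -0.03 with library totals and the core median of 25-day brains to -0.04 with the deposited TPM. At 10 days the smallest p belonged to Prosalpha4T1, Prosalpha3T and Rpn9, and at 25 days to Prosalpha1, Rpt6R and Rpt5. The largest single value was that of Prosalpha1 at 25 days, which had 61.8 and 3.05 TPM at 0 min and 16.3 and 5.75 TPM at 30 min (-1.52 ± 0.84, edgeR adjusted p 1), while its sum with Prosalpha1R was 103 and 43.9 TPM before and 113 and 42.2 TPM after. Midgut markers summed to 24028 TPM in replicate A of 10-day brains at 30 min, against 2.08 to 1051 TPM in the other 22 brain libraries; their part in these values was not tested.

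**Figure D5:**
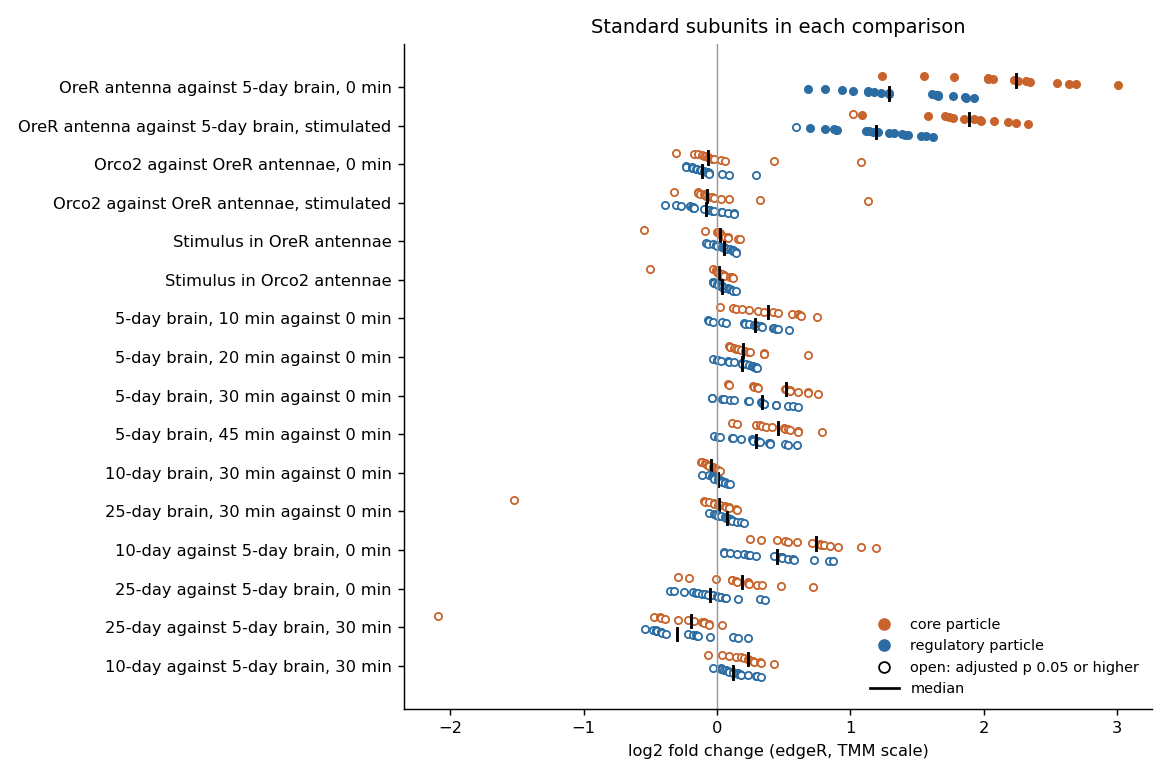
Log2 fold change (horizontal axis, edgeR on the TMM scale) of each of the 32 standard subunits in the 16 comparisons (rows), for core genes (upper points of a row) and regulatory genes (lower points), with filled points for an adjusted p under 0.05 and a bar at the median. Filled points occur in the comparisons of antenna with brain, and the bars of the core genes lie at 2.24 and 1.89 there.

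With age, the outcome for the proteasome genes turned on the 4 low libraries. With all libraries, 0 of 38 members tested were called between 10-day and 5-day brains at 0 min (0.115 percent of all 10431 genes), with core and regulatory medians of 0.74 and 0.45, and 5 members at an unadjusted p under 0.05. DESeq2 called 0 members as well (5.46 percent of all genes). Library totals moved these medians to 0.99 and 0.70 and that of all genes from 0.06 to 0.31. Prosalpha5 was at 89.9 and 89.3 TPM at 10 days, above the 3 values of 5-day brains, and differed by 0.80 ± 0.28 (edgeR adjusted p 0.177). Prosbeta1 was at 64.7 and 73.8 TPM against 53.1, 27.9 and 19.9 TPM (1.19 ± 0.48, edgeR adjusted p 0.238), again without overlap. Prosalpha4 differed by 0.71 ± 0.27 (edgeR adjusted p 0.208).

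Without the 4 low libraries, an exclusion made after the data were seen, 14 of 38 members were higher in 10-day brains and none was lower. Of all genes, 5.03 percent were called higher and 8.33 percent lower. The exclusion raised the calls over all genes from 0.115 to 13.4 percent, so the rise in calls was not limited to these members. At 30 min the same exclusion left 0 percent of all genes called between 10-day and 5-day brains. The members called higher are named next. They were the core genes Prosalpha3, Prosalpha4, Prosalpha5, Prosalpha6, Prosalpha7, Prosbeta1, Prosbeta3, Prosbeta6 and Prosbeta7, the ATPase gene Rpt4, the ubiquitin receptor genes Rpn10 and Rpn13, and the lid genes Rpn11 and Rpn12. Prosalpha3, at 94.9 and 99.0 TPM against 70.1 and 54.7 TPM in 5-day replicates A and B, differed by 0.76 ± 0.16 (edgeR adjusted p 0.0231). Core and regulatory medians were 0.51 and 0.28, beside 0.10 over all genes and 0.65 over 17 ribosomal protein genes. In this fit the 5-day group holds 2 libraries, of which replicate B also had low ribosomal protein genes (-0.92). Transcript length minus effective length, a reading of fragment length, was 325 and 335 bases in the 10-day libraries and 369 bases in both of these. The 6 neuronal markers, none of them at 0, summed to 3493 and 3643 TPM in the 10-day libraries and to 5106 and 5768 TPM in these 5-day libraries. The part of these shifts in the result was not tested.

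At 25 days the replicates stood far apart. Prosalpha3 was at 96.8 TPM in replicate A and 9.35 TPM in replicate B at 0 min, and at 90.6 and 11.5 TPM at 30 min, and Prosbeta7 at 103 and 17.3 TPM and at 114 and 16.7 TPM. Markers of some cell types separated the same replicates and others did so less. Neuronal markers summed to 3305 TPM in A and 6086 TPM in B at 0 min, and to 3181 and 5559 TPM at 30 min. The 6 fat body markers, none of them at 0, summed to 380 and 835 TPM and to 382 and 690 TPM. Glial markers summed to 3504 and 3328 TPM and to 2838 and 3043 TPM. Muscle markers summed to 260 and 204 TPM and to 181 and 174 TPM, and midgut markers to 12.2 and 3.11 TPM and to 1051 and 3.2 TPM. The part of these markers in the proteasome values was not tested. Against 5-day brains at 0 min, 0 of 38 members were called (1.65 percent of all genes, 1 member at an unadjusted p under 0.05), with core and regulatory medians of 0.19 and -0.05, which changed sign to -0.09 with the deposited TPM and to 0.11 with library totals. Without replicate A, which leaves the low replicate B alone, 7 members were called lower and 1 higher, against 7.16 and 3.56 percent of all genes. At 30 min the count was again 0 (0.489 percent of all genes, 1 member at an unadjusted p under 0.05), and the medians were -0.19 and -0.30. The smallest p there were those of Prosalpha1 (-2.09 ± 0.81, edgeR adjusted p 0.205), Rpn6 and Rpt3R. Without the low libraries, which leaves replicate A alone at 25 days and assumes that it varies like the other groups, Prosalpha3, Prosalpha7, Prosbeta7 and Rpn12 were higher at 0 min (2.01 percent of all genes called higher) and 0 members were called at 30 min (1.83 percent of all genes). The medians became 0.61 and 0.33 at 0 min and 0.39 and 0.22 at 30 min, so the direction at 30 min turned. Between 10-day and 5-day brains at 30 min, 0 members were called (0.671 percent of all genes, 0 members at an unadjusted p under 0.05), with medians of 0.24 and 0.12. None of the low libraries was in these groups, but the fit estimated spread from all brain libraries. With the low ones left out of the fit, 0 percent of all genes, and so no member, were called. Prosalpha3T, Rpn13R and Prosalpha4 had the smallest p. In these last 3 comparisons DESeq2 called 0 members, against 5.36, 4.39 and 2.4 percent of all genes.

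Not all subunits shared the low values of the 4 libraries. Averaged over them, all but 3 of the 32 standard genes lay below the median of the other brain libraries on the scale of log2(TPM + 1), led by Prosalpha1 (-2.11), Prosalpha3 (-1.89), Prosbeta7 (-1.71) and Rpn13 (-1.51). The lid scaffold genes Rpn5 (0.10), Rpn9 (0.22) and Rpn6 (0.24) lay at or above it. The share of all genes below that median is not given here, so the low values are not read as particular to proteasome genes. In replicate B of 25-day brains at 0 min, Rpn6 was at 109 TPM, against 90.4 TPM in replicate A, and Rpn5 was at 92.9 against 87.1 TPM, while Rpn7 of the same lid was at 15.2 against 54.7 TPM and Rpn3 at 16.1 against 63.7 TPM. At 30 min Rpn6 was again higher in replicate B (95.7 against 90.4 TPM), but Rpn5 was not (91.3 against 96.3 TPM). Rpn7 (17.3 against 53.8 TPM) and Rpn3 (19.2 against 65 TPM) were again lower in B. Genes of one complex thus differed in opposite directions between the same replicate libraries, for Rpn5 at 0 min only. Rpn6 was the member with the smallest p between 25-day and 5-day brains at 0 min, with 90.4 and 109 TPM against 80.6, 80.8 and 92.2 TPM (0.32 ± 0.11, edgeR adjusted p 0.168), and the groups overlapped. With the replicate letter as a block it was called (0.38 ± 0.07, edgeR adjusted p 0.00385), and so it was without replicate A (0.43 ± 0.13, edgeR adjusted p 0.0473). Rpn6 shares 390 bases with ave on the opposite strand. Among the 25 pathway genes 1 was called lower at 25 days and 0 min, Ubi-p5E (-0.68 ± 0.17, edgeR adjusted p 0.0473).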

How the data were processed

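RNA-seq (total RNA, TruSeq RNA kit v2, per the labels' protocols) of 8 antennal and 23 brain libraries was used, and HDAC6 mutant brains were not analysed here. The deposited tables hold kallisto estimated counts and TPM per transcript, per the file headers; the submitters' processing notes name kallisto 0.43.1, CASAVA 1.7 and edgeR 3.18.1. The strand setting is not given in the sources used here. Of 30490 transcripts, 30255 matched 13821 genes of Ensembl BDGP6.54; unmatched ones held 0.396 to 0.514 percent of counts and were left out. Deposited expected counts were summed per gene and rounded, and the deposited TPM were summed per gene for levels.

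Tests used edgeR 4.0.16 (R 4.3.3; TMM, filterByExpr, robust quasi-likelihood F-test), with Benjamini-Hochberg adjustment over all genes tested and a threshold of 0.05, fitted over all libraries for the comparison of tissues and within antennae or brains otherwise. The procedure was tested on simulated data. Depth ran from 18.5 to 76.7 M counts. Alternatives were DESeq2 1.42.0 (size factors, test), no filter on low counts, the replicate letter as a block, fragment-length class, each library left out, and, added after the data were seen, library totals, no low libraries, Prosalpha1 summed with Prosalpha1R, a crossed pairing, and limma 3.58.1 on log2(TPM + 1). Members and lists were chosen with earlier results of these data known. In each comparison up to 10 members per direction that passed, by fold change, or else the 3 with the smallest p, up to 5 pathway genes and all testis-type copies were named. Other genes were named after their values were seen. The tests did not use replicate letters unless a block is named. Letters were read as pairs in 1 comparison, 5-day brains at 10 against 0 min. Deviations of same-lettered libraries correlated there at 0.52, 0.45 and 0.50, and the block left it at 0 called members.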

Additional observations from a re-analysis of the deposited data

How the results depend on the processing

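Of 879 values of named genes under another setting, 828 kept direction and side of the threshold, 32 lost the call, 10 gained it and 9 changed direction. Members called lower in unstimulated OreR antennae against brains numbered 1 with the fragment-length class as a covariate and 3 with the deposited TPM, against 0 in the edgeR test; in stimulated antennae they numbered 0, 0 and 2 with fragment-length class, library totals and the TPM, and 0 to 1 when 1 library was left out. Members called higher in Orco2 at 0 min numbered 1 with fragment-length class, and 1 member was called lower in stimulated Orco2 by DESeq2. Without the 4 low libraries, 14 members were higher at 10 days and 4 at 25 days, both at 0 min. Fragment-length class gave 2 lower members at 25 days and 30 min. With 1 library left out, members called at 25 days and 0 min numbered 0 to 1 higher and 0 to 7 lower, and at 30 min 0 to 1 lower. DESeq2 called 5.46 percent of all genes between 10-day and 5-day brains at 0 min, against 0.115 percent by edgeR, and 4.39 against 0.489 percent at 25 days and 30 min. The cause of these changes was not tested. For fragment-length class and most libraries left out, the share of all genes called is not given here. Those member counts are therefore not read as a trait of the members. A group left with 1 library was assumed to vary like the others.

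The replicate letter as a block gave 2 higher members in Orco2 both at 0 min and with stimulus (the genotypes share only letter B), and 1 higher member each at 10 days and 0 min, at 25 days and 0 min and at 25 days and 30 min (Rpn6, 0.29 ± 0.07, edgeR adjusted p 0.0151). It ended the call of Rpt4R between unstimulated tissues (4.46, edgeR adjusted p 0.0616) and moved no other count by over 1.5 times. The share of all genes called under the block is not given here, so its counts are not read as a trait of the members. Outside 5-day brains at 10 min the letters were not read as pairs. For the stimulus, same-lettered libraries still deviated together in OreR antennae (correlation 0.73) and in 25-day brains (0.88). There, the tests without a block count the gap between letters as spread. The other correlations were 0.02 in Orco2 antennae, -0.00 to 0.74 in 5-day brains at 20, 30 and 45 min, and -0.20 at 10 days. A crossed pairing at 10 days, added after the data were seen, called 0 members.

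Signs that turned when 1 library was left out were those of Prosbeta5R2 (-0.72 to 7.81), Prosbeta5R1 (-1.38 to 7.11), Prosbeta2R2 (-3.62 to 4.96) and Prosbeta4R1 (-3.15 to 4.60) between stimulated antennae and brains. Their negative values come from the fit without stimulated replicate B, where replicate A held 0 counts and SEs were 2.43 to 3095.81, so they give no direction. Signs also turned for Prosbeta5R2 under stimulus in OreR (-3.73 to 7.66), Rpn9 at 10 days (-0.26 to 0.05), and Prosalpha1 (-2.48 to 1.92) and Rpt5 (-0.16 to 0.49) at 25 days. Between unstimulated tissues the call of Prosalpha1 was lost without OreR 0 min A, without brain C and on the deposited TPM, and that of Rpt4R also under the DESeq2 test, without the low libraries, and without OreR A or any 1 of the 3 brains. Prosalpha1 at 25 days and 30 min was called with fragment-length class (-3.05, edgeR adjusted p 0.0241).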
